A study of Rattus norvegicus with 12 samples.

Results

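The enzymes that turn acetyl-CoA into squalene were followed in rat liver under a high-fat diet with and without didymin, a flavonoid glycoside of citrus fruit. They are 9 genes of the 16558 in the joined count tables, chosen by gene name as enzymes of this path: Acat2, Hmgcs1, Mvk, Pmvk, Mvd, Idi1, Fdps, Fdft1 and Ggps1. All 9 were measured, and all 9 passed the filter on low counts that left 12355 genes for the tests. Counts in a single library ran from 11 for Acat2 to 12270 for Hmgcs1. RNA sequencing of whole liver was done in 12 libraries of Sprague Dawley rats, an outbred stock, in 4 groups of 3. Normal rats (N.1, N.2 and N.3) received saline, and no label gives them the high-fat diet or didymin. Model rats (M.5, M.6 and M2.1) were fed fat-rich chow for 8 weeks, which was used to bring about non-alcoholic fatty liver disease. The 2 didymin groups carried the same diet-induced disease and differed in dose. The length of the diet is given for the model alone. No label pairs their column letters with the low or the high dose, so they are called arm D (D.1, D.4 and D.7) and arm G (G.1, G.3 and G.4). The sources used here give neither the age and sex of the rats nor the size of a dose. No group received didymin without the diet.

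Sterols and isoprenoids share the mevalonate pathway. Thiolase and HMG-CoA synthase build HMG-CoA from acetyl-CoA, which is reduced to mevalonate, and a pair of kinases and a decarboxylase turn mevalonate into isopentenyl diphosphate. Isomerisation and condensation give farnesyl diphosphate, the branch point from which squalene leads to cholesterol and geranylgeranyl diphosphate leads to protein prenylation. In liver, transcription of much of the pathway is driven by SREBP-2, the product of Srebf2, which is held back when sterols in the endoplasmic reticulum are plentiful.

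Total counts per library ran from 12469914 to 15521648. The 13 genes of the mitochondrial genome took 3.85% to 18.8% of the counts in 10 libraries, 44.1% in M.6 and 61.0% in G.3. Hepatocyte markers summed to 146660 to 196400 CPM (counts per library size after TMM scaling) in those 10 libraries, to 76126 CPM in M.6 and to 45434 CPM in G.3, so the labelled tissue was borne out by its markers in every library, least so in G.3. Of 10 Kupffer cell markers all 10 were detected, and their sum ran from 281.1 CPM in M.6 to 1653 CPM in D.4. Markers of other cell types were also detected: 5 of 6 of endothelium (all but Pecam1) summed to 124.6 to 251.9 CPM, 2 of 3 of red cells (all but Hba-a1) to 55.7 to 460.2 CPM, 2 of 3 of pancreas (all but Prss1) to 8.73 to 53.4 CPM and 2 of 3 of fat (all but Adipoq) to 0.639 to 6.01 CPM. Of the muscle markers Ckm and Myh4 were at 0 or not listed, and the sum was at most 0.567 CPM. Each CPM that follows is of 1 gene across libraries, unless it is named as a sum of markers. Levels are not compared between genes, since no value per length was used. Ratios of Hmgcs1 to other members are compared only between libraries.

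Promoter sequences were taken from RefSeq (build GRCr8) as the 250 bases before each gene's start, and 7 of the 9 genes matched. Those of 4 genes are shown. Idi1 and Fdps are the members that passed the test below, Hmgcs1 is the member with the lowest values against the model in both didymin arms, which did not pass, and Ggps1 is the member whose difference from normal was nearest to 0. Capitals mark CCAAT, the box bound by NF-Y, or its reverse complement ATTGG. The 4 windows are chr17:66547525-66547774 (minus strand), chr2:176804817-176805066 (minus strand), chr2:53382054-53382303 (plus strand) and chr17:55958500-55958749 (plus strand).
Idi1: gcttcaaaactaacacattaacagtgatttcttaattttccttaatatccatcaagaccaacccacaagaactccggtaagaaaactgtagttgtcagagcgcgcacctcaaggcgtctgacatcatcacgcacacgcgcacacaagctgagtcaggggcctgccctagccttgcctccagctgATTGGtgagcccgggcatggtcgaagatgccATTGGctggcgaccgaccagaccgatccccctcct
Fdps: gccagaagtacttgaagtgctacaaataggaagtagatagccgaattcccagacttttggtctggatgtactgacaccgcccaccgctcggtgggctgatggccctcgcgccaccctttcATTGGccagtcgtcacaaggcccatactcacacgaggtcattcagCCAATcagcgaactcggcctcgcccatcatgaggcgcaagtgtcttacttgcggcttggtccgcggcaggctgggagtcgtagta
Hmgcs1: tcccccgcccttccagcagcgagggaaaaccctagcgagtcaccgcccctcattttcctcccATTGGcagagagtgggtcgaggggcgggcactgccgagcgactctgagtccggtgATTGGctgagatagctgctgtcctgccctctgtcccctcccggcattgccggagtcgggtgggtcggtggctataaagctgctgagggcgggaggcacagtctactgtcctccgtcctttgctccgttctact
Ggps1: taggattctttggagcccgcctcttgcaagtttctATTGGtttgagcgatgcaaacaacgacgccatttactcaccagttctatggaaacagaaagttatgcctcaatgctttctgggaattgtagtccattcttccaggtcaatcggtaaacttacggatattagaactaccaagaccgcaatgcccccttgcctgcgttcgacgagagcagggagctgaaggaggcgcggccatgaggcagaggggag

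CCAAT stood on either strand in 6 of the 7 matched promoters, against 34.0% of 33469 rat promoters of the same length. It occurred 2 times each in the windows of Idi1, Fdps and Hmgcs1 and 1 time in that of Ggps1. GGGCGG, the box bound by Sp1, stood on either strand in 5 of the 7, against 30.5% of promoters, and in neither the Idi1 nor the Ggps1 window. No match of the one motif overlapped a match of the other. TCACNCCAC, a core of the sterol regulatory element, was in 0 of the 7 windows on either strand and in 0.974% of promoters. No other form of that element was searched, so this count does not show that the windows lack one. These are matches of letters in a short window.

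Mean transcript levels of the enzymes up to squalene were lower in liver of the high-fat groups than in normal liver, while Ggps1 of the geranylgeranyl branch was near its normal level. Idi1 fell 6.10-fold and Fdps 3.30-fold between the mean of normal libraries and the mean of the 9 high-fat libraries. These 2 of 9 members passed the test of the mean of the 3 high-fat groups against normal (edgeR's quasi-likelihood test, Benjamini-Hochberg adjustment over 12355 genes). Over all tested genes 0.089% passed it, 11 genes. All 9 members had a negative log2 fold change in that comparison, with a median of −1.36 against 0.02 over all tested genes. Before adjustment 8 of the 9 were lower at a p under 0.05, against 2.86% of tested genes. In 5 members (Hmgcs1, Mvd, Idi1, Fdps and Fdft1) all 9 high-fat libraries lay below all 3 normal ones, against 0.963% of tested genes. In whole liver, fewer cells that express these genes and less RNA per cell cannot be told apart. Hepatocyte markers summed to 160000 to 196400 CPM in the normal group, 76130 to 155200 among model rats, 146700 to 154100 under arm D and 45430 to 165200 under arm G. Their part in these differences was not tested.

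**Figure D1:**
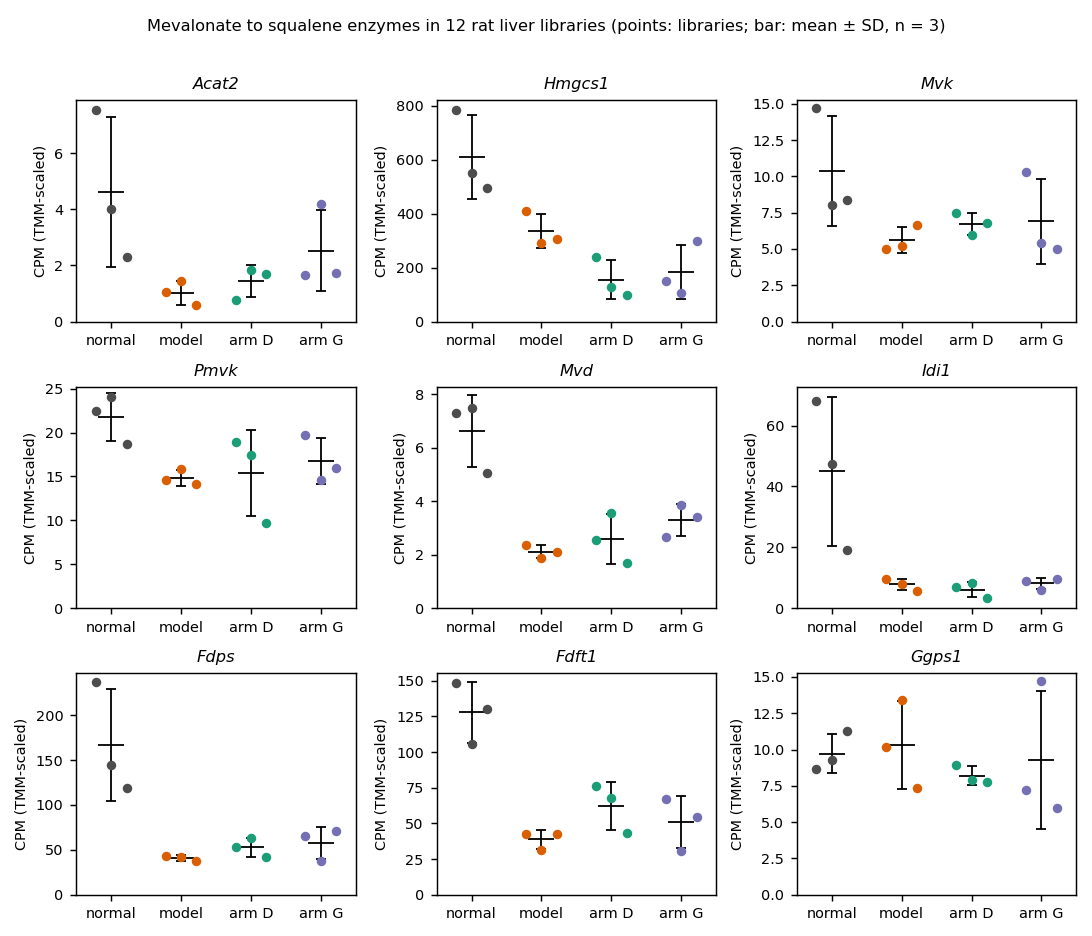
Level of each of the 9 genes in every library, in CPM on a linear axis that starts at 0, with 1 panel per gene, 1 point per library and lines at the mean ± SD of each group (n = 3). In the Idi1 panel the normal libraries sit at 19.2 to 68.2 CPM and the 9 high-fat libraries at 3.27 to 9.63 CPM, while in the Ggps1 panel the 4 groups overlap.

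The first enzymes join acetyl units. Acat2, the cytosolic acetoacetyl-CoA thiolase, was at 7.56, 4.03 and 2.31 CPM in the normal libraries, 1.05, 1.44 and 0.597 CPM in M.5, M.6 and M2.1, 0.780, 1.84 and 1.69 CPM in arm D and 1.66, 4.20 and 1.73 CPM in G.1, G.3 and G.4. All 3 model and all 3 arm D libraries lay below the normal ones, and in arm G only G.3, the library with most mitochondrial counts, overlapped them. Its log2 fold change in the high-fat groups was −1.59 ± 0.43 (SE, adjusted p = 0.411). It rests on few reads, with at most 118 counts in a library.

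Hmgcs1 encodes the cytosolic HMG-CoA synthase. It was at 786, 549 and 496 CPM in the normal libraries, 409, 292 and 305 CPM in model livers, 238, 129 and 99.5 CPM in arm D and 149, 105 and 297 CPM in arm G. All 9 high-fat libraries lay below the normal ones, and of the 6 didymin libraries 5 lay below the whole model group. G.4, at 297 CPM, lay between M.6 and M2.1. Its log2 fold change in the high-fat groups against normal was −1.52 ± 0.32 (SE, adjusted p = 0.167).

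The next enzymes phosphorylate and decarboxylate mevalonate. Mvk, mevalonate kinase, was at 14.7, 8.05 and 8.35 CPM in the normal libraries and between 4.99 and 10.3 CPM in the 9 high-fat libraries, of which 8 lay below the lowest normal one. Pmvk, phosphomevalonate kinase, was at 22.4, 24.1 and 18.7 CPM in the normal group, and averaged 14.8 ± 0.895 CPM (SD, n = 3) among model rats, 15.4 ± 4.94 CPM under arm D and 16.8 ± 2.64 CPM under arm G. Beside Ggps1 the kinases had the smallest differences from normal, with log2 fold changes of −0.70 ± 0.27 for Mvk and −0.47 ± 0.21 for Pmvk in the high-fat groups (SE, adjusted p = 0.732 and 0.756). Mvd, the decarboxylase that yields isopentenyl diphosphate, was at 7.30, 7.51 and 5.07 CPM in the normal libraries, 2.35, 1.89 and 2.11 CPM in model livers, 2.55, 3.56 and 1.69 CPM in arm D and 2.68, 3.86 and 3.40 CPM in arm G. No high-fat library reached the normal range of Mvd, whose log2 fold change was −1.33 ± 0.27 (SE, adjusted p = 0.135).

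The isomerase and the farnesyl diphosphate synthase carried the lowest p-values. Idi1 encodes the isomerase that makes dimethylallyl diphosphate. It was at 68.2, 47.4 and 19.2 CPM in N.1, N.2 and N.3, 9.56, 8.10 and 5.80 CPM in model livers, 6.95, 8.15 and 3.27 CPM in arm D and 8.81, 6.01 and 9.63 CPM in arm G. The normal libraries differed among themselves, and the lowest of them was still above every high-fat library. The log2 fold change of Idi1 was −2.62 ± 0.33 (SE, adjusted p = 0.0194).

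Fdps makes farnesyl diphosphate. It was at 237, 145 and 118 CPM in the normal libraries, 42.6, 42.5 and 37.1 CPM in model livers, 53.6, 63.3 and 42.2 CPM in arm D and 65.3, 37.4 and 70.5 CPM in arm G. No high-fat library reached the normal range, and the model libraries were close together. Its log2 fold change in the high-fat groups was −1.74 ± 0.24 (SE, adjusted p = 0.0214). Both calls depended on single libraries. Idi1 missed the threshold without N.1 (adjusted p = 0.135), N.2 (0.114) or D.1 (0.0706). Fdps missed it without N.1 (adjusted p = 0.246), N.2 (0.114), D.1 (0.0868), M.5 (0.0597), D.4 (0.0563) or D.7 (0.0511). With limma-voom both had an adjusted p of 0.0621, and with total counts in place of TMM Fdps had 0.055.

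Fdft1, squalene synthase, draws farnesyl diphosphate into sterols. It was at 148, 106 and 130 CPM in the normal libraries, 42.6, 31.0 and 42.9 CPM in model livers, 76.1, 67.6 and 43.4 CPM in arm D and 67.1, 31.0 and 54.5 CPM in arm G. It was below normal in all 9 high-fat libraries, with a log2 fold change of −1.36 ± 0.24 that did not pass (SE, adjusted p = 0.0741). Ggps1, which makes geranylgeranyl diphosphate, was at 8.64, 9.25 and 11.3 CPM in the normal libraries, 10.2, 13.4 and 7.32 CPM in model livers, 8.94, 7.92 and 7.75 CPM in arm D and 7.22, 14.7 and 5.96 CPM in arm G. The groups of Ggps1 overlapped, and its highest libraries were G.3 and M.6, which had the most mitochondrial counts. Its log2 fold change in the high-fat groups was −0.08 ± 0.29 (SE, adjusted p = 0.942), with a 95% interval from −0.70 to 0.54. That interval lies above the −2.62 of Idi1 and the −1.74 of Fdps. It holds the −0.47 of Pmvk, and its lower end is at the −0.70 of Mvk. The difference between genes was not tested.

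Each high-fat group was also set against normal alone, and these comparisons share the normal libraries. In the model, 8 of 9 members were lower and their groups did not overlap, against 5.29% of tested genes. Before adjustment 6 were lower at a p under 0.05, against 1.9% of tested genes, and after it 0 of 9 passed, as did 0% of all genes, of which 607 had a p under 0.05 (limma-voom called 0 genes and DESeq2 41). Fdps came nearest with −2.03 ± 0.33 (SE, adjusted p = 0.0805), and Idi1 was at −2.53 ± 0.47 and Fdft1 at −1.72 ± 0.32 (SE, adjusted p = 0.2 for both). The median over the members was −1.64. Ggps1, the member that was not lower, was at 0.08 ± 0.35, and with total counts in place of TMM at −0.02.

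In arm D all 9 members were lower than normal, 6 of them at a p under 0.05 before adjustment, against 2.12% of tested genes. The groups did not overlap in 7 members, against 8.17% of tested genes, and 0 passed after adjustment (0% of all genes). In arm G all 9 were lower, 5 of them at a p under 0.05 before adjustment (2.17% of tested genes) and 5 without overlap (5.05%), and 0 passed after adjustment (0% of all genes). The members' medians were −1.35 in arm D and −1.01 in arm G. Idi1 was the lowest member in both arms, at −2.88 ± 0.47 and −2.46 ± 0.46 (SE, adjusted p = 0.274 and 0.344). Before adjustment 783 genes in arm D and 814 in arm G had a p under 0.05 against normal, in either direction.

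**Figure D2:**
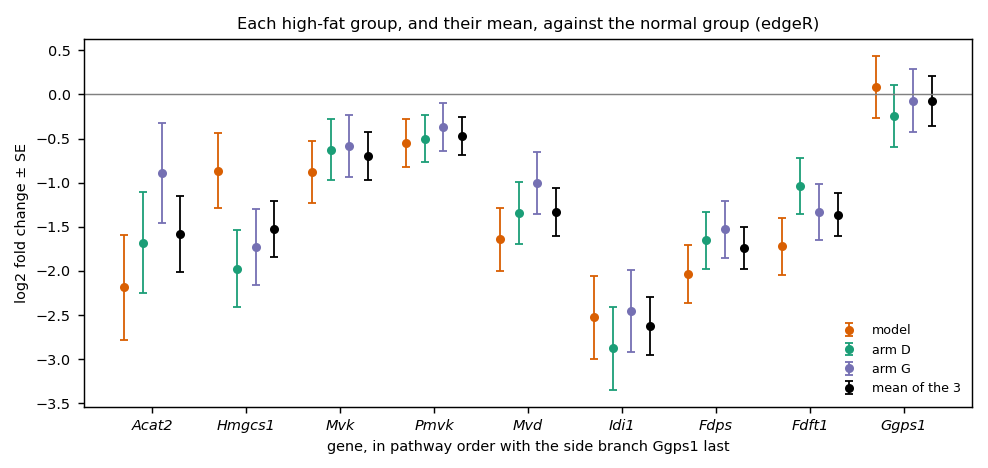
Log2 fold change of each gene in the model, arm D, arm G and the mean of the 3 high-fat groups (black) against the normal group. Values are from the edgeR fit, with bars of 1 standard error and a line at 0. Idi1 sits at −2.53, −2.88, −2.46 and −2.62 in that order, and Ggps1 at 0.08, −0.25, −0.07 and −0.08, around the line.

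The arms were then set against the model, which asks whether the enzymes differed with didymin under the high-fat diet. Whether its length was equal in the arms and the model is not given. These comparisons share the model libraries. In arm D 0 of 9 members passed (0% of all genes, with 776 at a p under 0.05 before adjustment), and in arm G 0 of 9 passed (0% of all genes, with 287). Hmgcs1 was the member farthest below the model in both. Its log2 fold change was −1.11 ± 0.42 in arm D (SE, 95% interval −2.03 to −0.19, adjusted p = 0.785) and −0.87 ± 0.42 in arm G (SE, 95% interval −1.78 to 0.05, adjusted p = 1). It was the single member with a p under 0.05 before adjustment in arm D, where 3.24% of tested genes were lower at that level, and in arm G 0 members were lower or higher at it (1.13% and 1.2% of tested genes). Its value in arm D was −0.94 without M.5, −0.99 without D.4, −0.87 without D.7 and −1.01 with total counts, and in these settings it had no p under 0.05 before adjustment. Hmgcs1 was also the single member lower in arm D without overlap, against 6.71% of tested genes.

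Positive values against the model were found in 6 of the 9 members in arm D and in 7 in arm G. Idi1 was at −0.35 ± 0.45 in arm D and 0.07 ± 0.45 in arm G, and Ggps1 at −0.33 ± 0.35 and −0.15 ± 0.35 (SE). Fdft1 was at 0.68 ± 0.32 in arm D (SE, 95% interval −0.003 to 1.37), where it was the single member higher without overlap, against 5.93% of tested genes, and at 0.39 ± 0.32 in arm G. Acat2 at 1.29 ± 0.60 and Mvd at 0.64 ± 0.36 (SE, adjusted p = 1 for both) were the 2 members higher in arm G without overlap, against 2.61% of tested genes, while 0 members were lower without overlap (2.09%). The Acat2 value rested in part on G.3: it ran from 0.75 without G.3 to 1.60 without M.6. The Hmgcs1 value in arm G ran from −1.41 without G.4 to −0.58 without G.3. Fdps was at 0.38 ± 0.31 in arm D and 0.51 ± 0.31 in arm G. Without G.3, 5 members (Acat2, Pmvk, Mvd, Fdps and Fdft1) were higher in arm G without overlap, against 10% of tested genes, and 1, Ggps1, was lower (9.34%). Without both G.3 and M.6 the same 5 were higher (14.5% of tested genes), and Hmgcs1 and Ggps1 were lower (13.1%). The median over the members was 0.25 in arm D and 0.29 in arm G, against −0.04 and 0.00 over all tested genes.

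**Figure D3:**
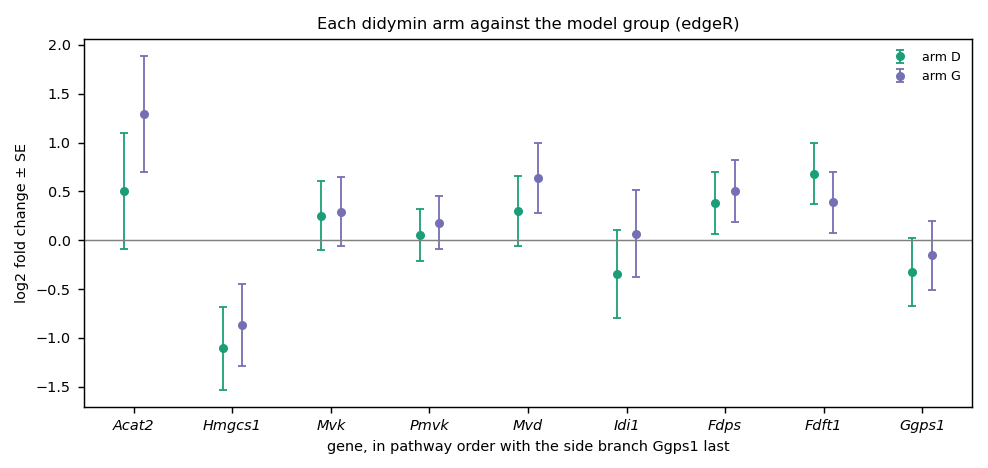
Log2 fold change of each gene in arm D and in arm G against the model group from the edgeR fit, with bars of 1 standard error and a line at 0. Hmgcs1 lies lowest in both arms, at −1.11 and −0.87, and Acat2, Mvk, Pmvk, Mvd, Fdps and Fdft1 have positive values in both.

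Hmgcs1 was also set against the other members within each library, a description chosen after its values were seen that carries no test. The log2 ratio of Hmgcs1 counts to those of another member in the same library does not depend on library scaling. Relative to Fdps this ratio was 1.73 to 2.07 in the normal libraries, 2.78 to 3.26 in the model and 1.03 to 2.15 in the 6 didymin libraries. Relative to Fdft1 it was 1.93 to 2.41, 2.83 to 3.26 and 0.93 to 2.45 in the same order. All 3 model libraries lay above every normal and every didymin library in 4 of the 8 ratios, those to Mvd, Idi1, Fdps and Fdft1. In the other 4, to Acat2, Mvk, Pmvk and Ggps1, model libraries overlapped the normal or the didymin range. A ratio shows unequal change between its genes, not which of them moved. All 8 ratios share the same Hmgcs1 counts. Mvd, Idi1, Fdps and Fdft1 also followed each other over the 12 libraries (Pearson r of log2 CPM 0.767 to 0.934), so these 4 ratios are not independent observations. Ratios of Hmgcs1 to genes other than the members were not computed, so no share over all genes stands beside the count.

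**Figure D4:**
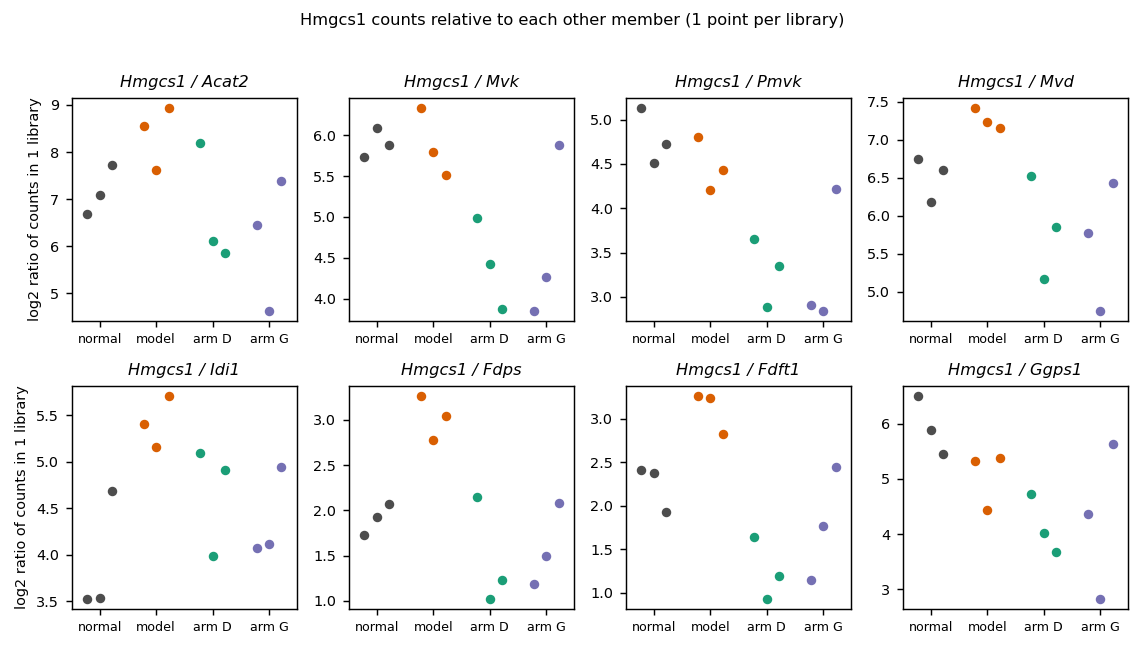
Log2 ratio of Hmgcs1 counts to the counts of each other member within a library (0.5 added to both), with 1 panel per gene, 1 point per library and a linear axis that does not start at 0. In the panels for Mvd, Idi1, Fdps and Fdft1 the 3 model points lie above all others.

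Between the arms, 0 of 9 members passed in arm G against arm D (0% of all genes, with 423 at a p under 0.05 before adjustment), 0 had a p under 0.05 before adjustment (0.971% of tested genes were lower and 2.45% higher at it) and 0 were without overlap (3.35% lower and 4.08% higher). The 95% intervals of the log2 difference ran from −0.67 to 1.15 for Hmgcs1, −0.56 to 1.39 for Idi1, −0.56 to 0.80 for Fdps and −0.98 to 0.39 for Fdft1. Acat2 had the widest, from −0.47 to 2.04. With 3 libraries an arm, differences of either sign lie within these intervals.

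The list of steps from squalene to cholesterol, 11 genes, had negative values throughout. All 11 were tested, and in the high-fat groups against normal their median was −1.75 and 11 of 11 were lower at a p under 0.05 before adjustment, against 2.86% of tested genes. The 3 that passed were Sqle, squalene epoxidase, at −3.14 ± 0.39, Tm7sf2, a sterol reductase, at −2.79 ± 0.39, and Msmo1, a sterol methyl oxidase, at −2.57 ± 0.37 (SE, adjusted p = 0.0194, 0.0214 and 0.0270). They are also the 3 of the list with the lowest p in the model against normal. With Idi1 and Fdps they made up 5 of the 11 genes called in the whole table. In the model against normal the median of this list was −2.02 and 7 of 11 were lower without overlap, against 5.29% of tested genes.

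Genes that use isoprenoid diphosphates for prenylation, dolichol, ubiquinone or tRNA had values on both sides of 0. Of 14 tested, 0 passed in the high-fat groups, 0 had a p under 0.05 before adjustment and the median was −0.05. In the model against normal the 3 with the lowest p were Trit1, a tRNA isopentenyltransferase, at 1.08, Pdss1, a subunit of the synthase of the ubiquinone side chain, at 1.21, and Cox10, a haem farnesyltransferase, at −0.41. None of these passed.

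Among 12 genes of sterol regulation and export, 0 passed in the high-fat groups and the median was −0.21. Before adjustment 4 were lower at a p under 0.05 (2.86% of tested genes), namely Insig1 at −1.98, Stard4 at −1.57, Srebf2 at −0.98 and Insig2 at −0.79, and 1, the sterol exporter Abcg1, was higher at 1.05. Over all 12355 tested genes 806 had such a p in either direction, of which 353 were lower and the rest higher. Insig1 and Insig2 encode proteins that retain SREBP in the endoplasmic reticulum, and Stard4 a sterol transfer protein. These 5 were named after their values were seen. The count of Srebf2 went from 59.98 ± 16.99 CPM in normal liver to 27.06 ± 8.96 CPM among model rats, 32.2 ± 7.23 CPM under arm D and 32.2 ± 5.95 CPM under arm G (SD, n = 3), a difference that did not pass.

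Acat1, Soat1 and Soat2, which share a name or a reaction with Acat2, had log2 fold changes between −0.24 and 0.19. Acat1, the mitochondrial acetoacetyl-CoA thiolase, was at −0.06 ± 0.28 in the high-fat groups against normal (SE) and did not pass. Soat1 and Soat2, sterol acyltransferases also known as ACAT, were at −0.24 ± 0.55 and 0.19 ± 0.28 (SE), and neither passed. Of 7 tested genes of ketone bodies and thiolases 0 passed, 0 had a p under 0.05 before adjustment and the median was −0.22.

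**Figure D5:**
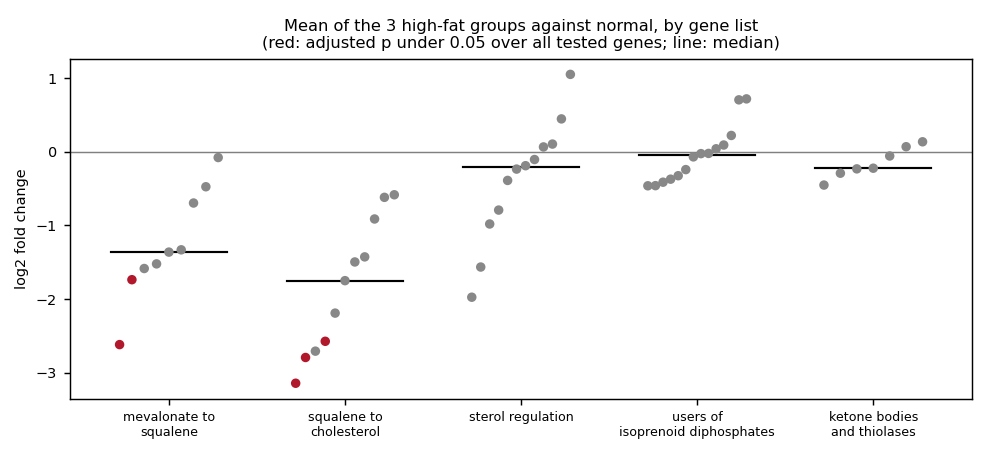
Log2 fold change of every tested gene of the 5 lists in the mean of the 3 high-fat groups against normal, with 1 point per gene, a bar at each list's median and genes with an adjusted p under 0.05 in red. The medians are −1.36 for mevalonate to squalene and −1.75 for squalene to cholesterol, against −0.05 for users of isoprenoid diphosphates, −0.21 for sterol regulation and −0.22 for ketone bodies and thiolases.

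Over the 12 libraries, the genes whose log2 CPM followed the mean of the 9 members most closely were Sqle (Pearson r = 0.930), Msmo1 (0.892), Dhcr7 (0.864), Tm7sf2 (0.862), Ralgps2 (0.857), Amacr (0.853), Frmd6 (0.851) and Acss2 (0.851), of the 10 that the naming rule gives. All these values share the same libraries and their depth, and the separation of normal from high-fat libraries is in each of them. Among the members, Idi1 and Fdps had r = 0.934 and Fdps and Fdft1 had r = 0.918, while Hmgcs1 and Acat2 had r = 0.253. The gene nearest to Fdps was Sqle (r = 0.972), that nearest to Fdft1 was Msmo1 (r = 0.949), that nearest to Idi1 was Sqle (r = 0.902) and that nearest to Mvd was Tm7sf2 (r = 0.894). The others were nearest to genes of no list here: Mvk to Frmd6 (r = 0.929), Hmgcs1 to Kbtbd2 (r = 0.890), Acat2 to Cep290 (r = 0.880), Pmvk to Il17rb (r = 0.832) and Ggps1 to Mrvi1 (r = 0.951). Ggps1 had r = 0.000 with the mean of the other 8 members. Over the high-fat libraries alone this r was 0.846 for Pmvk, 0.787 for Idi1, 0.567 for Mvd, 0.551 for Fdps and 0.178 for Fdft1. It was negative for Ggps1 (−0.263), Hmgcs1 (−0.245), Acat2 (−0.221) and Mvk (−0.15).

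The authors' deposited table for normal against model gives positive values where normal is higher, and 4 members pass there at an adjusted p under 0.05. Over all genes 53 pass in it. In the authors' deposited table Idi1 has a log2 fold change of 2.53 (adjusted p = 0.000327), Fdps of 2.03 (1.60e-05), Fdft1 of 1.72 (2.21e-05) and Mvd of 1.65 (0.0182). Acat2, at 2.20 in the authors' deposited table, has an adjusted p of 0.0785. For these members the adjusted p-values there are lower than those of the edgeR fit for the same groups. That of Ggps1 is higher, at 0.9855 against 0.965. No member passes in the authors' deposited tables for either didymin arm against the model, where 7 genes in all pass for arm D and 1 for arm G.

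Reads may be shared with neighbours. In RefSeq's GRCr8 table, Idi1 overlaps the protein-coding gene Wdr37, Fdps a small nuclear RNA gene, and Acat2, Hmgcs1 and Fdft1 overlap the non-coding RNA genes LOC102553528, LOC102547360 and LOC134482130. The sources used here do not say whether counting used strand, so reads of these 5 members and their partners may not be separated. Mvk, Pmvk, Mvd and Ggps1 have no overlapping gene in that table.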

How the data were processed

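Per the labels' protocols, liver RNA was taken up with Trizol and libraries came from an NEBNext Ultra kit. The authors deposited 3 tables of 6 libraries, whose counts of reads for each gene are not normalized, per the file headers. The same deposited tables hold the authors' log2 fold change and p-value per gene, printed only where named. DESeq2 and mm9, a mouse build, are named in the submitters' processing notes, although 14402 of the 16558 gene names equal a rat symbol. An aligner and a counter are not stated there. Columns were matched to groups by letter, with N taken as normal and M as model. Libraries are not tied to animals by any label, and p-values therefore describe variation among libraries, which may be technical. Another 36 per-sample columns were not used.

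The tables were joined on gene name; the model counts were equal in all 3. No replicate pair agreed within sampling noise (chi-square per degree of freedom 23.7 to 962). The test was edgeR 4.0.16 under R 4.3.3 (filterByExpr, TMM, 1 quasi-likelihood fit of 12 libraries with a mean per group, 8 residual degrees of freedom, Benjamini-Hochberg over 12355 genes, threshold 0.05). The common biological coefficient of variation was 0.409, which limits the precision. Intervals use the moderated degrees of freedom. Alternatives used DESeq2 1.42.0, limma 3.58.1, other scalings and filters, and left-out libraries.

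Members and lists were chosen with earlier results of these data known. The naming rule took all members, 3 genes per list by lowest p, namesakes, and the 10 genes of most similar pattern (correlation of log2 CPM, prior count 2). A few genes given by this rule are left out of the text.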

Additional observations from a re-analysis of the deposited data

How the results depend on the processing

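The alternatives were other size factors, no TMM factor, nuclear-coded genes alone, no filter on low counts, DESeq2, limma-voom with and without quality weights, the compared groups alone, leaving out G.3 with M.6, and leaving out each library. In the high-fat groups against normal, members with an adjusted p under 0.05 numbered 2 with edgeR, 1 with total counts, 5 with DESeq2, 0 with limma-voom, 6 with quality weights and 0 to 2 when 1 library was left out (0 without N.1, N.2 or D.1). In the model against normal the count was 0 with edgeR, 4 with DESeq2, 1 with quality weights and 0 to 1 without 1 library (1 without G.3). In arm D against normal it was 0 with edgeR, 4 with DESeq2 and 7 with quality weights, and in arm G 0, 4 and 2. Over all 12355 genes, arm D against normal gave 0, 84 and 941 calls in the same order, and arm G 0, 51 and 47. The model against normal gave 0, 41 and 6 calls over all genes, and 6 without G.3. Over all genes, the high-fat groups against normal gave 11 calls with edgeR, 87 with DESeq2, 2 with limma-voom, 875 with quality weights, 21 with no filter and 2 with total counts. The cause of these differences was not tested.

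Members with a p under 0.05 before adjustment numbered 1 in arm D against model, 0 with total counts, 2 with nuclear-coded genes, no filter or DESeq2, and 0 to 2 without 1 library. In arm G against model they numbered 0, but 1 with nuclear-coded genes, no filter, limma-voom or without G.3 and M.6, 2 with DESeq2 or quality weights, and 0 to 2 without 1 library. In arm G against arm D they numbered 0, and 1 with quality weights. In the high-fat groups they numbered 8, and 5 to 8 without 1 library. Over all genes the high-fat groups gave 806 of 12355, from 345 of 12626 without N.2 to 1933 of 12601 without M2.1. Over all genes, arm D against model gave 723 with total counts, 781 with nuclear-coded genes, 904 with no filter and 985 with DESeq2. Arm G against model gave 291 with nuclear-coded genes, 383 with no filter, 242 with limma-voom and 584 without G.3 and M.6. It gave 401 with DESeq2 and 1584 with quality weights, each of 12355 genes. Arm G against arm D gave 931 of 12355 with quality weights. Without 1 library, arm D against model gave 318 (without D.4) to 1802 (without M2.1). Arm G against model gave 232 (without D.7) to 921 (without G.3). These all-gene counts take either direction. Members without overlap numbered 2 in arm D against model, 1 with other size factors and 2 to 5 without 1 library. In arm G against model they numbered 2, but 7 without G.3 and M.6 and 2 to 6 without 1 library, and in arm G against arm D 0, but 3 without G.3 and M.6 and 0 to 3 without 1 library. Without G.3 and M.6, 14.5% of tested genes were higher and 13.1% lower without overlap in arm G against model. In arm G against arm D these shares were 8.27% and 9.27%. In arm D against model they were 9.14% and 9.09% without M.6.

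Without 1 library, the members' median ran from 0.001 to 0.296 in arm D against model, 0.043 to 0.448 in arm G against model and −1.644 to −1.115 in arm D against normal. The sign of a member's value changed in the following settings. In the model against normal, Ggps1 was −0.017 with total counts, −0.153 without G.3 and M.6, and −0.153 to 0.274 without 1 library. In arm D against model, Pmvk was −0.006 with limma-voom, −0.160 with quality weights and −0.123 to 0.296 without 1 library. In arm G against arm D, total counts gave −0.146 for Mvk, −0.067 for Pmvk, −0.149 for Ggps1 and −0.060 for Fdps, quality weights −0.228 for Ggps1 and 0.081 for Fdft1, and leaving out G.3 and M.6 −0.330 for Ggps1. Without 1 library that comparison ran from −0.060 to 0.339 for Fdps, −0.330 to 0.388 for Ggps1, −0.306 to 0.685 for Hmgcs1, −0.374 to 0.218 for Mvk and −0.117 to 0.303 for Pmvk. In arm G against model, Ggps1 ran from −0.629 to 0.076, Idi1 from −0.107 to 0.254 and Mvk from −0.120 to 0.473. Against normal, Ggps1 ran from −0.551 to 0.141 in arm G and −0.231 to 0.036 in the high-fat groups. Except for normal libraries, numbers in the count columns differ from the labels' replicate numbers, and no label says what a column number marks. Arm G shares 2 column numbers with normal and 2 with arm D, so these 2 comparisons were also fitted with the column number as a replicate block (9 libraries without the model, 2 residual degrees of freedom). In that fit 0 members passed in either comparison, 4 and 0 had a p under 0.05 before adjustment, the medians were −1.054 and 0.15, and the sign changed for Ggps1 against normal (0.033) and for Pmvk (−0.048) and Ggps1 (−0.265) against arm D. Over all genes it called 5 against normal, where the fit without a block called 0, and 0 against arm D. Of its 12140 tested genes 947 against normal and 134 against arm D had a p under 0.05 before adjustment, in either direction. Deviations of same-numbered libraries from their group means had r from −0.401 (N.1 and D.1) to 0.353 (N.3 and G.3) across genes, so the libraries share a number and no pairing was taken from it. The other comparisons were not paired, since their groups share fewer than 2 column numbers. Acat2, at 11 to 118 counts a library, is limited most by depth.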
